A study of Mus musculus with 12 samples.

Results

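The apolipoprotein L genes Apol6, Apol7c, Apol8, Apol9a, Apol9b, Apol10a, Apol10b, Apol11a and Apol11b were followed in bulk RNA sequencing of mouse breast tumors. They were taken by symbol from the table of expression values, which gave 9 genes of 55401. Of these, 7 reached a level of at least 1 TPM (transcripts scaled to a total of 1000000 per library) in at least 3 of the 12 libraries and entered the test with 15504 genes in all, while Apol10a and Apol7c did not. The tumors were orthotopic 4T1 tumors, a mouse mammary carcinoma line, in Balb/c mice, and each group had 3 tumors with 1 library each. The groups received an isotype control IgG1-Fc (control), a recombinant IL10-Fc protein (IL-10-Fc), the CSF1R antibody AFS98 (aCSF1R), or BF10, in which human interleukin-10 is fused to the C terminus of a CSF1R antibody. Dosing was given 2 times per week from a tumor size of 100 mm3, and the number of doses is uncertain because the sample labels give 6 and the series description gives 4. The age of the mice was not in the labels. All 4 groups carried the same tumor line and no gene was altered, and an injected tumor line still holds the immune and stromal cells of the host.

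Apolipoprotein L proteins carry amphipathic helices that insert into membranes, and most of the family acts inside the cell despite a name that recalls blood lipoproteins. Human APOL1 is the best known member, a secreted protein that lyses trypanosomes, and human APOL6 can trigger cell death when it is overproduced. The mouse genes arose by tandem duplication, and in mouse and human several members are induced by interferons, which act through transcription factors at short motifs before the transcript start. Interleukin-10 is a cytokine that signals through STAT3 and both restrains macrophages and acts on CD8+ T cells, and the receptor CSF1R keeps tumor macrophages alive.

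All 9 genes lay on chromosome 15 of the genome build GRCm38, between bases 77044729 and 77757003 (GENCODE M21). Apol6 stood at the left end (77044729 to 77057106, plus strand). The other members lay between 77403789 and 77757003 in the order Apol9a, Apol10a, Apol11a, Apol7c, Apol10b, Apol11b, Apol9b and Apol8, with Apol7a, Apol7b, Apol7e and the pseudogene Apol10c-ps among them. The duplicated genes were partly alike in sequence, which matters for how reads are assigned. Over aligned bases, the longest coding transcripts of Apol9a and Apol9b were 98.4% identical, and those of Apol11a and Apol11b were 93.1% identical. Of all stretches of 75 bases in the coding transcripts of Apol9a, 46.6% also occurred in Apol9b. The share found in any other gene was 6.65% for Apol11a, 8.01% for Apol11b, 1.51% for Apol10b, 0.0861% for Apol6, in its case outside the family, and 0 for Apol8. The levels of Apol9a and Apol9b are therefore uncertain as single genes, while their sum is less so.

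A RefSeq window of 300 bases around the transcript start (250 bases before it and 50 after, build GRCm38.p6) was matched for 8 of the 9 members. These windows were searched on both strands for an ISRE-like motif with the letters GAAANNGAAA, the core of the interferon-stimulated response element. The windows of 7 members held it, all but that of Apol8, and in each case it read TTTCNNTTTC along the gene. The motif stood in 3.44% of 32851 windows of all genes. Of 3 other Apol loci with a window, Apol7e held the motif, and Apol7a and Apol7b did not. The members include near copies, so their matches are not independent of each other. Among the members, Apol9a, Apol9b and Apol7c held the motif as a pair of matches that overlapped by 4 bases. The stretches around the matches are shown with the matched bases in capitals, because they carry what the members share and where the copies part.
Apol10b (chr15:77596095-77596154, minus strand): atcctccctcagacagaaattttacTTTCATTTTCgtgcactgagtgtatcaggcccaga
Apol11a (chr15:77508194-77508253, plus strand): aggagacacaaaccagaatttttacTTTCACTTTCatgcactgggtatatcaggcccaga
Apol11b (chr15:77643302-77643361, minus strand): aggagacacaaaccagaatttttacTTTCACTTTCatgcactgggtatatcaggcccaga
Apol10a (chr15:77476971-77477030, plus strand): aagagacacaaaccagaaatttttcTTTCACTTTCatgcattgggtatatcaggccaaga
Apol9a (chr15:77411099-77411164, minus strand): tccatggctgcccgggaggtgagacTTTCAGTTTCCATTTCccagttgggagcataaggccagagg
Apol9b (chr15:77729010-77729075, plus strand): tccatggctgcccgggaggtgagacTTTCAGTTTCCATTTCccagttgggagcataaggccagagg
Apol7c (chr15:77533330-77533395, minus strand): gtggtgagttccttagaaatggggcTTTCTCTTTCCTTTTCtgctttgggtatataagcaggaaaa

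The stretch of Apol11a was the same as that of Apol11b, and the stretch of Apol9a was the same as that of Apol9b. Over the whole window, 278 aligned bases of Apol9a and Apol9b were 100.0% identical, and 300 bases of Apol11a and Apol11b were 99.3% identical. The match began 51 bases before the annotated start in Apol10a, 50 bases before it in Apol11a and Apol11b, and 55 bases before it in Apol7c. In Apol9a and Apol9b, which each have more than 1 annotated start, it began 59 and 37 bases before the first of them. Those are RefSeq starts, and the GENCODE gene starts of Apol9a (77411135) and Apol9b (77729039) lie inside the matched bases. In Apol10b the match began 4 bases before the annotated start, so the start of that gene is annotated farther upstream relative to the shared stretch. A GAS-like motif, after the gamma-activated sequence, with the letters TTCNNNGAA (the same on both strands), stood in the windows of Apol10a, Apol11a and Apol11b, in each 241 bases before the start, and in 8.30% of all windows. As a setting, 8 of the 15 windows found for a list of 20 genes known as induced by interferon-gamma (such as Irf1 and Gbp2) held the ISRE-like motif, and so did 7 of the 14 windows of 20 genes known as induced by type I interferon (such as Ifit1, Isg15 and Mx1). A match is a run of letters, and binding of a factor was not measured here.

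**Figure D1:**
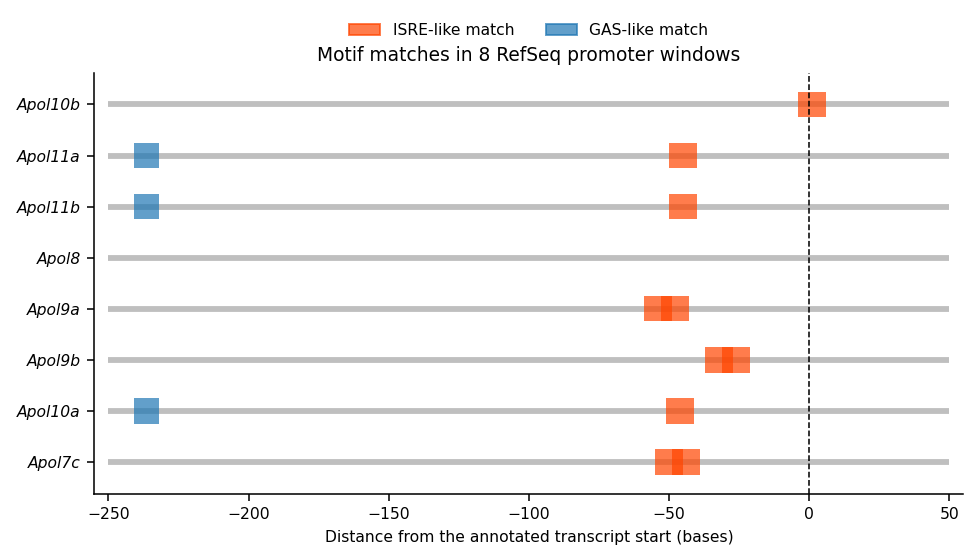
Matches to the ISRE-like motif (orange) and the GAS-like motif (blue) in the promoter windows of 8 members, by distance in bases from the annotated transcript start (dashed line at 0); for genes with more than 1 window, 1 is drawn. By the RefSeq starts drawn, the ISRE-like matches of 6 members sit upstream of the start within 59 bases of it, in Apol10b the match spans the start, and the window of Apol8 holds neither motif. The GENCODE gene starts of Apol9a and Apol9b lie inside their matches.

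The deposited values were FPKM (fragments scaled to transcript length and library size), which correct for transcript length, and they were rescaled to the same total in each library, the TPM scale. Their sums separated the libraries: 5 libraries had sums of 782919 to 921581 and 7 had sums of 609695 to 648413. The higher-sum set held control replicates 4 and 7 and 1 library of each treated group (IL-10-Fc replicate 7, aCSF1R replicate 8 and BF10 replicate 6), so the control group leaned towards it. What separates the sets was not in the labels. The sets were drawn from the same sums that the values were divided by, so the division itself lowers values more in the higher-sum set. Between the sets, 59.2% of all tested genes differed (limma, adjusted p below 0.05 and at least 1.5-fold), so values are given both without and with a model term for the set. The relative read depth of the libraries, estimated from the steps of low values, was 0.908 to 1.06 of that of IL-10-Fc replicate 2. The estimate is the most common ratio, held by 21 to 84 genes in the other libraries. It was searched only in a limited range around equal depth, so a larger difference could not have been found. The total number of reads is unknown. The label of the tumors was checked on epithelial markers: Krt8 had a mean of 571 to 784 TPM in the 4 groups, Krt18 718 to 964 TPM and Epcam 52.4 to 58.0 TPM.

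The members spanned a wide range of levels, which can be set side by side because TPM corrects for length. Over the 12 libraries, Apol9b had a mean of 59.8 TPM ± 27.5 (SD, n = 12) and Apol9a a mean of 59.0 ± 26.6. Apol6 followed with 27.3 ± 20.3 TPM, then Apol10b with 15.7 ± 6.84, Apol11a with 3.52 ± 1.65, Apol8 with 1.72 ± 1.17 and Apol11b with 1.15 ± 0.471. Apol10a, with a mean of 0.146 TPM, and Apol7c, with 0.0937 TPM, were close to the floor of the table. Neighbours in this order were not always apart. Apol9b lay above Apol9a in 5 of 12 libraries, Apol6 above Apol10b in 7, Apol8 above Apol11b in 6 and Apol10a above Apol7c in 8. Apol9a lay above Apol6, Apol10b above Apol11a and Apol11b above Apol10a in all 12 libraries, and Apol11a above Apol8 in 10. Apol9a and Apol9b together made up 57.9% to 87.9% of the summed level of the 9 members.

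Apol10b, Apol11a and Apol11b formed one group, in which every treated tumor lay above every control tumor. Apol10b had 10.5, 7.73 and 3.88 TPM in the 3 control tumors. It had 21.0, 26.2 and 14.3 TPM with IL-10-Fc, 18.4, 13.8 and 13.5 TPM with aCSF1R, and 25.1, 12.7 and 21.2 TPM with BF10. The lowest treated tumor was a BF10 tumor and the highest an IL-10-Fc tumor, and the control and treated values did not overlap.

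The closely related Apol11a had the same order at a lower level. It had 2.21, 1.44 and 1.02 TPM in control tumors, 5.42, 5.63 and 2.68 TPM with IL-10-Fc, 4.62, 2.85 and 2.96 TPM with aCSF1R, and 5.93, 3.01 and 4.47 TPM with BF10. The lowest treated value was that of the higher-sum IL-10-Fc library. The 3 control libraries of Apol11a were again below all 9 treated ones.

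Its near copy Apol11b was lower still and lay close to the 1 TPM limit of the filter, so treated libraries alone carried it into the test and its counts below are no support. Apol11b had 0.650, 0.508 and 0.521 TPM in control tumors and 1.44, 1.84 and 1.01 TPM with IL-10-Fc. It had 1.32, 1.10 and 0.825 TPM with aCSF1R and 1.91, 1.21 and 1.46 TPM with BF10. None of the treated values reached down to the control range.

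On the log2(TPM + 1) scale, on which low genes show less than their true fold change, Apol10b was 1.41 higher with IL-10-Fc than with control (SE 0.39), 1.03 higher with aCSF1R (SE 0.39) and 1.34 higher with BF10 (SE 0.39). The adjusted p-values of these differences, from limma with Benjamini-Hochberg adjustment over 15504 genes, were 0.74, 0.89 and 0.79, so none passed the test. Apol11a differed from control by 1.10, 0.81 and 1.09 in the same order (SE 0.34), and Apol11b by 0.63, 0.41 and 0.69 (SE 0.21). Neither gene passed in any of the 3 comparisons.

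Of the 7 tested members, none passed the test against control with BF10, IL-10-Fc or aCSF1R, where 0%, 0.00645% and 0.568% of all tested genes did. Apol11b is left out of the counts that follow, because it reached 1 TPM in treated libraries only. The other 6 had a difference above 0 in each of these comparisons, but so did 77.5%, 79.7% and 73.5% of all genes. Their median difference was 0.93 with BF10, 0.90 with IL-10-Fc and 0.78 with aCSF1R (0.77, 0.69 and 0.75 with Apol11b), against 0.32, 0.35 and 0.24 for all tested genes. At an unadjusted p below 0.05 and at least 1.5-fold, 2 of the 6, Apol10b and Apol11a, were higher with BF10 (0.897% of all genes) and with aCSF1R (0.819%), and 3 with IL-10-Fc (0.916%), where Apol6 joined them. These 3 comparisons share the same control tumors and are not independent of each other.

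Groups that did not overlap were counted as well. With BF10, 2 of these 6 members lay above all controls, where 2.36% of all tested genes did, with IL-10-Fc 3 members (4.75%) and with aCSF1R 2 members (1.61%). Apol10b and Apol11a were the 2 members in each, joined by Apol6 with IL-10-Fc. In a comparison of all 9 treated tumors with the 3 controls, which was added after the data were seen, Apol10b and Apol11a did not overlap with control, and 0.245% of all tested genes lay wholly higher. The adjusted p in that comparison was 0.67 for Apol10b (log2 difference 1.26, SE 0.31), 0.68 for Apol11a (1.00, SE 0.28) and 0.68 for Apol11b (0.57, SE 0.17) with limma, and 1 gene in all (0.00645%) passed. At an unadjusted p below 0.05 and at least 1.5-fold 3 members were higher in it (0.974% of all genes), namely Apol6, Apol10b and Apol11a.

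**Figure D2:**
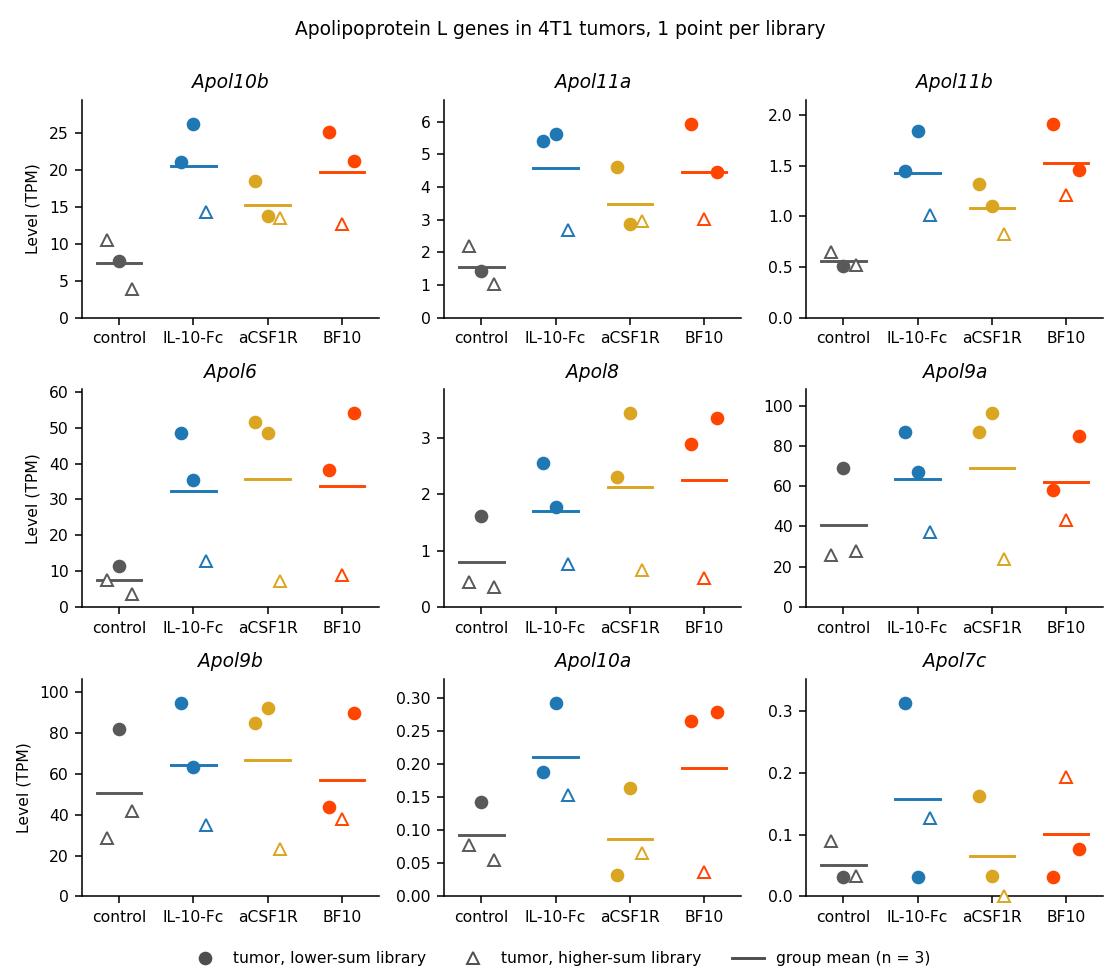
Level in TPM (linear axes from 0) of the 9 members in each of the 12 libraries, by group; filled circles are lower-sum and open triangles higher-sum libraries, and bars are group means (n = 3). In the top row (Apol10b, Apol11a, Apol11b) all treated points lie above all control points, whereas in Apol8, Apol9a and Apol9b the triangles lie low in every group.

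Apol9a, Apol9b, Apol8 and Apol6 formed the other group, and their levels moved with the library set. Apol9a and Apol9b encode proteins known as interferon-induced antiviral factors that bind phosphatidylethanolamine. Apol9a had 26.1, 69.0 and 27.8 TPM in control tumors, 87.1, 67.0 and 37.3 TPM with IL-10-Fc, 87.0, 96.1 and 24.0 TPM with aCSF1R, and 58.2, 43.2 and 84.8 TPM with BF10. The lowest library in each treated group was the higher-sum one, and the highest control was the only lower-sum control, so control and treated values overlapped.

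Apol9b had 28.5, 82.2 and 42.1 TPM in control tumors and 94.9, 63.6 and 34.9 TPM with IL-10-Fc. It had 84.9, 92.3 and 23.1 TPM with aCSF1R and 43.8, 37.8 and 89.7 TPM with BF10. All 5 higher-sum libraries lay at 42.1 TPM or below and all 7 lower-sum libraries at 43.8 TPM or above.

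Because reads of these near copies can be split between them, their sum was taken. Apol9a plus Apol9b came to 54.6, 151 and 69.9 TPM in control tumors, and to 47.1 to 188 TPM over the 9 treated tumors. The sum overlapped between control and each treatment. The ratio of Apol9a to Apol9b was 0.661 to 0.915 in control tumors and 0.917 to 1.33 in treated tumors. This pattern was noticed after the values were seen, was not tested, and rests on how reads were shared between the copies.

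Apol8, a weakly expressed member with no shared stretch of 75 bases, had 0.449, 1.60 and 0.355 TPM in control tumors. It had 2.54, 1.77 and 0.766 TPM with IL-10-Fc, 2.31, 3.43 and 0.651 TPM with aCSF1R, and 2.89, 0.507 and 3.35 TPM with BF10. All 5 higher-sum libraries were below 1 TPM and all 7 lower-sum libraries above it, in control and treated tumors alike.

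Apol6 stood between the groups. It had 7.40, 11.4 and 3.71 TPM in control tumors, 48.6, 35.3 and 12.9 TPM with IL-10-Fc, 51.6, 48.5 and 7.21 TPM with aCSF1R, and 38.07, 9.04 and 54.0 TPM with BF10. The 6 lower-sum treated libraries had 35.3 to 54.0 TPM, and the lower-sum control library had 11.4 TPM. The 3 higher-sum treated libraries had 7.21 to 12.9 TPM and the higher-sum controls 3.71 and 7.40 TPM, so only within the lower-sum set, with a single control, were treated and control values apart.

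None of the differences from control in this group passed the test. Apol6 was higher by 1.89 with IL-10-Fc, 1.81 with aCSF1R and 1.82 with BF10 on the log2(TPM + 1) scale, each with an SE of 0.84. The differences of Apol9a were 0.69, 0.66 and 0.68 (SE 0.57) and those of Apol8 0.59, 0.75 and 0.77 (SE 0.50). The smallest were those of Apol9b, with 0.36, 0.29 and 0.19 (SE 0.60).

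The set itself was then read as a difference between higher-sum and lower-sum libraries, in the model that also held the treatment groups. Because the set was drawn from the sums used as the divisor, these differences include the rescaling. Their p-values describe a split made on the same data and are no independent test of it. Apol6 was 1.86 lower in the higher-sum libraries on the log2(TPM + 1) scale (SE 0.25, limma adjusted p 7.4e-05), Apol9b 1.24 lower (SE 0.23, 0.00052), Apol9a 1.23 lower (SE 0.18, 0.00011) and Apol8 1.10 lower (SE 0.15, 9.1e-05). Apol8 was at 1 TPM or more in lower-sum libraries only, which alone carried it into the test, so its difference is no support. Of the other 6 members, Apol6, Apol9a and Apol9b passed, as did 54.0% of all tested genes in this direction, and the median of all tested genes was -0.68. The differences of Apol10b (-0.48, SE 0.22), Apol11a (-0.40, SE 0.19) and Apol11b (-0.22, SE 0.13) did not pass, with adjusted p-values of 0.064, 0.079 and 0.16. Each was smaller in size than the median of all genes.

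With the set as a term, the standard errors of all 7 members fell and so did the differences from control. For all 9 treated tumors against control, Apol6 differed by 1.22 (SE 0.29), Apol10b by 1.10 (SE 0.25), Apol11a by 0.87 (SE 0.22) and Apol11b by 0.50 (SE 0.15). Apol8 differed by 0.34 (SE 0.18), Apol9a by 0.27 (SE 0.20) and Apol9b by -0.13 (SE 0.26), so the direction of Apol9b turned. The adjusted p-values were 0.22 for Apol10b, 0.27 for Apol6, 0.33 for Apol11a and 0.54 for Apol11b, and none of the 7 passed, while 0.0838% of all genes did. By single treatment the lowest adjusted p among the members in this model was 0.17, for Apol6 with aCSF1R, where 2.01% of all genes passed. With BF10 and IL-10-Fc none of the 7 passed in this model either, as against 0.00645% and 0.0258% of all genes. One library decided calls in this model. Without control replicate 4, the higher-sum control with the higher level of Apol6, Apol10b, Apol11a and Apol11b, Apol10b passed against control over all treated tumors (log2 difference 1.43, limma adjusted p 0.030), as did 0.11% of all genes. Without that library Apol10b and Apol6 also passed with aCSF1R (1.20 and 1.53, limma adjusted p 0.025 and 0.034), as did 1.7% of all genes. The median of all genes was 0.052 in the treated against control comparison with the set term, against 0.60 for the 6 members without Apol11b and 0.50 with it.

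In both sets Apol10b, Apol11a and Apol11b lay above control. This follows from the lack of overlap over all libraries given above and is no further support. Among higher-sum libraries, with 3 treated and 2 control libraries, the treated mean lay above control by 0.95 for Apol10b, 0.61 for Apol11a and 0.34 for Apol11b on the log2(TPM + 1) scale. Among lower-sum libraries, with 6 treated and 1 control, the differences were 1.302, 1.23 and 0.73. For Apol6 they were 0.73 among higher-sum and 1.90 among lower-sum libraries, and for Apol9b -0.14 and -0.12. A set with a single control gives a value with no test.

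**Figure D3:**
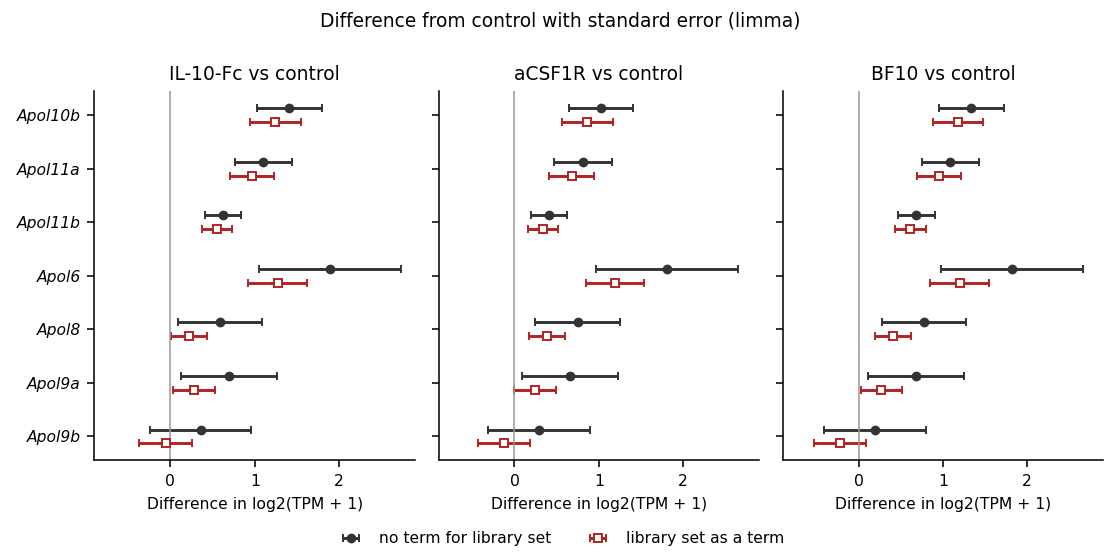
Difference from control in log2(TPM + 1) for the 7 tested members and each treatment (n = 3 against 3), with the standard error, without (black circles) and with (red squares) the library set as a term. Apol10b, Apol11a and Apol11b shift little between the models, Apol6 falls from 1.81 to 1.89 without the term to about 1.2 with it, and Apol9b goes below 0 with the term in all 3 comparisons.

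**Figure D4:**
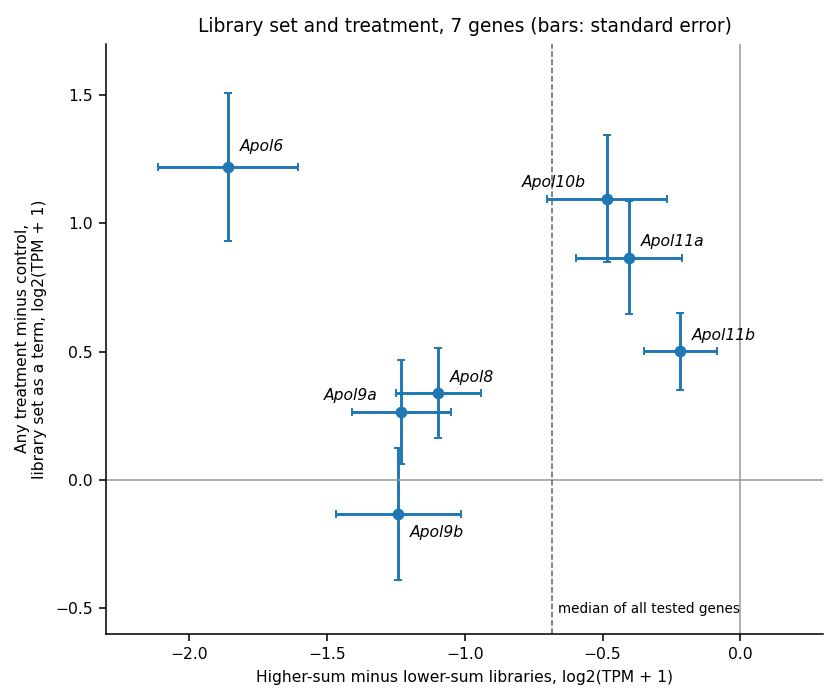
For each of the 7 tested members, the difference between higher-sum and lower-sum libraries (horizontal) and between treated and control tumors with the library set as a term (vertical), both in log2(TPM + 1) with standard errors; the dashed line is the median of all tested genes. Apol10b, Apol11a and Apol11b lie to the right of the dashed line and above 0, Apol9a, Apol9b and Apol8 lie to its left with a small difference, and Apol6 is far to the left and high.

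The treatments were then compared with each other. BF10 carries both the antibody and interleukin-10, so it was compared with IL-10-Fc and with aCSF1R. These comparisons do not isolate a portion unless the antibody acts alike in BF10 and aCSF1R, which was not tested. Of 12 macrophage markers, 7 fell with aCSF1R against control (median difference -2.58) and 0 with BF10 (median 0.22). Against control, 0.568% and 0% of all tested genes passed with these 2 treatments. Between BF10 and IL-10-Fc the 7 members differed by -0.17 to 0.19 on the log2(TPM + 1) scale (SE 0.21 to 0.84), and 0 of 7 passed, as did 0% of all tested genes. For Apol10b the difference was -0.070 (SE 0.39) and for Apol11a -0.014 (SE 0.34), errors that leave room for a difference in either direction. Between BF10 and aCSF1R the members differed by -0.10 to 0.31, and 0 of 7 passed against 0.735% of all genes. With the set term none of the 7 passed in either comparison, as against 0% and 2.82% of all genes. At an unadjusted p below 0.05 and at least 1.5-fold, 0 members were higher with BF10 than with IL-10-Fc (0.155% of all genes) or aCSF1R (3.5%). No member lay wholly higher with BF10 than with IL-10-Fc, where 0.619% of all genes did, or than with aCSF1R, where 4.33% did.

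With the 2 parts of BF10 read as a 2 by 2 design, IL-10-Fc and BF10 tumors were set against control and aCSF1R tumors. This reading takes the antibody to act alike in BF10 and aCSF1R, although the macrophage markers differed between those groups as given above. Apol10b was 0.86 higher in the tumors given interleukin-10 (SE 0.27, limma adjusted p 0.68), Apol11a 0.69 higher (SE 0.24, 0.82) and Apol11b 0.45 higher (SE 0.15, 0.78). None of the 7 passed, as against 0.142% of all tested genes, and the groups overlapped for all of them, while 0.206% of all genes lay wholly higher. At an unadjusted p below 0.05 and at least 1.5-fold 2 members, Apol10b and Apol11a, were higher (3.1% of all genes). With a set term, Apol10b had an adjusted p of 0.13 (difference 0.78, SE 0.21) and 1.39% of all genes passed, and without control replicate 4 it passed in that model (0.94, limma adjusted p 0.018), as did 0.993% of all genes. The non-additive contrast, the difference of BF10 from IL-10-Fc less that of aCSF1R from control, was below 0 for all 7, between -1.89 for Apol6 (SE 1.19) and -0.35 for Apol11b (SE 0.30), but it was below 0 for 74.1% of all genes too, with a median of -0.28. With the set term it lay between -1.27 for Apol6 (SE 0.48) and -0.044 for Apol9b (SE 0.43), and 58.2% of all genes were below 0. Without the set term it passed for none of them, with 0.29% of all genes passing, and for none with the set term, with 1.21%. At an unadjusted p below 0.05 and at least 1.5-fold, without the set term, it passed for 0 members, against 2.43% of all genes.

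The 2 members below the filter are given as levels only. Apol10a, which shares the promoter stretch of Apol11a in large part, had 0.0785, 0.143 and 0.0554 TPM in control tumors and 0.0325 to 0.293 TPM in treated tumors. Apol7c, known from dendritic cells, where it acts on phagosome membranes, had 0.0897, 0.0318 and 0.0333 TPM in control tumors and 0 to 0.314 TPM in treated ones. Apol7c overlapped between control and each treatment, and Apol10a between control and both aCSF1R and BF10. With IL-10-Fc the 3 values of Apol10a, 0.153 to 0.293 TPM, lay above its controls. Of all tested genes 4.75% did so, but Apol10a is not among them, and no share was counted for genes below the filter. At levels this close to the floor, a difference cannot be resolved at this depth. Among the other Apol loci, Apol7e had 0.168 to 0.318 TPM in control tumors and 0.588 to 1.82 TPM in treated ones. It reached 1 TPM in treated libraries only, so these values are a description. Of its stretches of 75 bases, 63.9% also occurred in Apol7b, so this value is uncertain. Apol7a had 4.91 to 19.4 TPM, Apol7b 0 to 0.956 TPM, the antisense gene Apol7d (on chromosome 1) 0.391 to 0.965 TPM, and Apol10c-ps at most 0.0603 TPM.

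How the members moved together was described by Pearson correlations of log2(TPM + 1) over the 12 libraries, after the mean of each library set was subtracted. The points share libraries, treatments and, for near copies, reads. Apol10b and Apol11a had r = 0.96, Apol11a and Apol11b r = 0.93, and Apol10b and Apol11b r = 0.88. Apol9a and Apol9b had r = 0.74, and Apol9b had r = -0.48 with Apol10b. Apol6 had r = 0.77 with Apol10b and 0.74 with Apol8, and 0.51 and 0.029 with Apol9a and Apol9b. Without the subtraction the values of Apol9b rose to 0.29 with Apol10b and 0.76 with Apol6. By rank (Spearman, after the subtraction), Apol6 had only 0.22 with Apol10b and with Apol11a and 0.37 with Apol11b, but 0.73 with Apol8. Apol10b, Apol11a and Apol11b had 0.86 to 0.91 among themselves by rank.

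**Figure D5:**
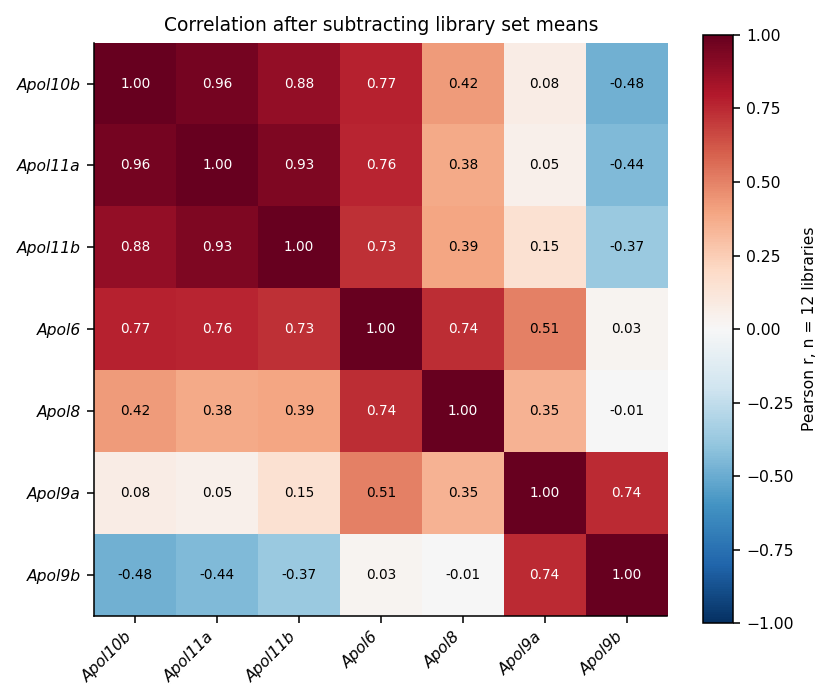
Pearson r between the 7 tested members over 12 libraries on the log2(TPM + 1) scale after the mean of each library set was subtracted. Apol10b, Apol11a and Apol11b form a block with r of 0.88 to 0.96, Apol6 is between 0.73 and 0.77 with each of them, and Apol9b is at -0.48 to -0.37 with them. By rank (Spearman, not drawn), Apol6 is only at 0.22 to 0.37 with the genes of this block.

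The genes outside the family with the most similar pattern, by the same measure over 12 libraries, were taken as the 3 highest for each member. For Apol10b they were Gbp4 (r = 0.98), which encodes a guanylate binding protein, Ifi47 (0.96), an interferon-inducible GTPase, and Olfr56 (0.94). For Apol11a they were Gbp4 (0.95), Ifi47 (0.91) and Ifng (0.91), the gene of interferon-gamma. For Apol11b they were Gbp5 (0.90), the chemokine gene Cxcl11 (0.90) and Gm28177 (0.90). For Apol6 they were the immunity-related GTPases Igtp (0.95) and Irgm1 (0.94) and Nos2 (0.94), the inducible nitric oxide synthase. Picked as the highest among all tested genes, these values are high by selection. Without the subtraction, r was 0.67 for Apol10b with Ifi47, 0.63 for Apol11a with Ifi47 and 0.46 for Apol11b with Cxcl11. It was 0.88 or above for the other pairs of these 4 members. By rank (Spearman, after the subtraction), the pairs had 0.64 (Apol11a with Gbp4) to 0.90.

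The other members had a different set of neighbours in pattern. For Apol9a they were Dusp7 (0.95), Hap1 (0.95) and Ifi35 (0.95), for Apol9b Gpa33 (0.98), Parp16 (0.98) and Eps8l2 (0.97), and for Apol8 Gm47283 (0.94), Hist1h2br (0.88) and Gm16534 (0.87). Against the 20 genes of the interferon-gamma list the median r was 0.82 for Apol6, 0.76 for Apol10b, 0.75 for Apol11a, 0.72 for Apol11b, 0.54 for Apol8, 0.41 for Apol9a and -0.091 for Apol9b. The median r against all tested genes lay between -0.032 and 0.38 for these members. Against the 20 genes of the type I interferon list, Apol9a was highest with 0.59, and Apol10b had 0.15.

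The interferon lists themselves moved as follows, with the members set beside them. All 20 interferon-gamma genes were above 0 with BF10 and IL-10-Fc against control, with medians of 0.89 and 0.92 on the log2(TPM + 1) scale, and 18 were above 0 with aCSF1R (median 0.61). The shares of all tested genes above 0 were 77.5%, 79.7% and 73.5%, with medians of 0.32, 0.35 and 0.24. None of the 20 passed the test in these comparisons. With the library set as a term, 0 rose with BF10, 1 with IL-10-Fc and 3 with aCSF1R, while 0.00645%, 0.0258% and 2.01% of all genes passed in either direction. Gbp5 was among them, with a difference of 1.07 with IL-10-Fc (SE 0.14, limma adjusted p 0.047) and 0.82 with aCSF1R (SE 0.14, 0.011). Gbp4 did not pass in that model (adjusted p 0.67 and 0.10). The summed level of the list was 1476 to 2053 TPM in control tumors, 2524 to 3477 TPM with IL-10-Fc, 2030 to 3260 TPM with aCSF1R and 2348 to 3698 TPM with BF10. Ifng had 0.721 to 1.45 TPM in control tumors and 1.37 to 3.05 TPM in treated tumors. Of the 20 genes of the type I interferon list, 19 were above 0 with BF10 (median 0.72), 16 with IL-10-Fc (median 0.34) and 20 with aCSF1R (median 1.04), and 0 passed. With the set term 20, 12 and 20 were above 0, where 62.4%, 69.1% and 51.2% of all genes were. Zbp1 and Ifit3 of that list differed between the interleukin-10 tumors and the others by 0.39 (SE 0.19) and -0.70 (SE 0.35), and neither passed.

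Macrophage markers fell with aCSF1R, and the tested members did not. The summed level of 12 macrophage markers was 2310 to 3513 TPM in control tumors and 132 to 938 TPM with aCSF1R, where 7 of 12 fell. It was 2204 to 3788 TPM with IL-10-Fc and 2513 to 4167 TPM with BF10, and 0 markers fell with either. Msr1 and Fcgr1, the macrophage genes named by the smallest p, were 3.75 and 3.01 lower with aCSF1R than with control (limma adjusted p 6.4e-05 and 0.00046). Apol10b, Apol11a and Apol11b lay above control with aCSF1R, with the macrophage markers at their lowest. In bulk tumors, fewer cells of a type and less RNA per cell cannot be told apart. The summed level of 10 CD8 T cell markers was 40.2 to 72.8 TPM in control tumors and 36.3 to 146 TPM in treated ones, and that of 8 neutrophil markers was 997 to 1899 TPM in control tumors and 524 to 18701 TPM in treated ones. Their part in the levels of the members was not tested.

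The remaining lists held dendritic cell, endothelial and epithelial markers, and the sums of all 3 moved with the library set. This is not particular to these lists. Of all tested genes, 54.0% passed as lower in the higher-sum libraries, and the median of all genes was -0.68. Dendritic cell markers summed to 87.1 to 184 TPM in higher-sum and 251 to 330 TPM in lower-sum libraries, endothelial markers to 52.8 to 120 TPM and 164 to 268 TPM, and epithelial markers to 690 to 1516 TPM and 1692 to 2360 TPM. Apol9a and Apol9b had no overlap between the sets either, and the share of all tested genes without overlap was not counted. Apol8 had none as well, but lower-sum libraries alone carried it into the test, so that is no support. Of 8 dendritic cell, 8 endothelial and 8 epithelial markers tested, 0 passed against control with any treatment. The part of these cells in the levels of the members was not tested.

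The tested genes at the edges of the cluster were read as well. Mb, the myoglobin gene at the left edge, overlaps the start of Apol6 on the opposite strand, and the strand setting of the counting is not given in the sources used here. Mb had 0.125 to 2.68 TPM, and its difference over all treated tumors was -0.39 (SE 0.29), opposite in sign to that of Apol6. Myh9, the nonmuscle myosin heavy chain gene at the right edge, had 19.6 to 301 TPM. It differed by 0.97 over all treated tumors (SE 0.88) and by 0.15 with the set as a term (SE 0.32), and it was 2.48 lower in higher-sum libraries.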

How the data were processed

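RNA of 12 orthotopic 4T1 tumors was sequenced by the authors from stranded libraries of polyadenylated RNA (genome mm10). The submitters' processing notes name STAR 2.7.5a, RSEM 1.3.3 and DESeq2 1.28.0, with no role given. The authors deposited FPKM values for 55401 genes. Tables of the authors' own comparisons (fold changes and p-values) were not used. FPKM values are not counts, so each was divided by its library sum and brought to 1000000 (TPM scale). Genes with at least 1 TPM in at least 3 libraries were tested with limma 3.58.1 (R 4.3.3, trend) on log2(TPM + 1), with 1 mean per group over all 12 libraries and 8 residual degrees of freedom. A gene passed at a Benjamini-Hochberg adjusted p below 0.05 and at least 1.5-fold. All gene-wise p-values in the text are from this test, which was checked on simulated data. Libraries with FPKM sums above 700000 formed the higher-sum set, whose term leaves 7 residual degrees of freedom.

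The members and gene lists were chosen with earlier results of these data known. All members were named, with every other gene called Apol plus a digit, the 2 genes of each list with the smallest p for interleukin-10, the 3 genes closest in pattern to each tested member, and the nearest tested gene on each side. Nothing in the labels says more than that each library is a separate tumor. Promoter sequences are from RefSeq (GRCm38.p6), transcripts and gene positions from GENCODE M21, aligned with Biopython 1.88. The alternatives tried were another pseudocount, 2 other scalings, no filter, the library set, sample weights, fewer groups, a replicate block, other thresholds and leaving out each library.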

Additional observations from a re-analysis of the deposited data

How the results depend on the processing

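Replicate numbers were shared by at most 2 tumors of any pair of groups, and the deviations of same-numbered tumors from their group means correlated at -0.66 to 0.42. These deviations also carry the library set, so they cannot decide whether the numbers pair the tumors. No pairing was used in the main test. The fit with the replicate block leaves 2 residual degrees of freedom and called 0 of the 7 members in every comparison, and over all genes it called 0 in place of 88 with aCSF1R against control.

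No member passed in any of the 8 comparisons with another pseudocount, FPKM as deposited, scaling by the median of ratios, no filter, the library set as a term, or no fold limit, nor in the 5 comparisons of 1 group with another when only those groups were fitted. At an unadjusted p below 0.05 with 1.5-fold, and without Apol11b, 2 members were higher with BF10, 3 with IL-10-Fc and 2 with aCSF1R against control. There were 2 for interleukin-10 and 3 for any treatment. The shares of all genes were 0.897%, 0.916%, 0.819%, 3.1% and 0.974% in this order. With Apol11b, which treated libraries alone carried into the test, the counts with BF10 and IL-10-Fc were 3 and 4. Sample quality weights called 7 with BF10, 7 with IL-10-Fc, 6 with aCSF1R, 3 for interleukin-10, 7 in the non-additive contrast and 7 for any treatment, but also 57.8%, 59.8%, 63.8%, 22.3%, 59.1% and 61.4% of all genes. In that fit IL-10-Fc replicate 4 had a weight of 61.7 and the estimation stopped before it converged, so its p-values are not relied on. Leaving out each library, without and with the set term, gave 0 to 2 called members with aCSF1R, 0 to 1 for interleukin-10 and 0 to 1 for any treatment, and 0 in the other comparisons. The calls came without control replicate 4, where 1.7%, 0.993% and 0.11% of all genes passed, and the cause was not tested.

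The direction held for 6 of the 7 members in every alternative, over the comparisons with control and for interleukin-10, with 1 exception, Apol9a with BF10, which ranged from -0.030 (without BF10 replicate 6, set term) to 1.12 over the libraries left out. Apol9b had no stable direction. With the set term it was -0.22 with BF10, -0.055 with IL-10-Fc, -0.12 with aCSF1R, -0.077 for interleukin-10 and -0.13 for any treatment. With the median of ratios it was -0.18, -0.074, -0.15 and -0.065 for BF10, IL-10-Fc, interleukin-10 and any treatment, and with the replicate block -0.12 for interleukin-10. Over the libraries left out it ranged from -0.51 to 0.60 with BF10, -0.18 to 0.77 with IL-10-Fc, -0.25 to 0.92 with aCSF1R, -0.22 to 0.33 for interleukin-10 and -0.27 to 0.69 for any treatment. Depth limits Apol7c and Apol10a, whose levels are a few steps of the 2-decimal table.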
